A study of Mus musculus with 16 samples.

Results

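The genes described are 10 factors that methylate DNA or silence retroviruses in the mouse embryo: Dnmt1, Dnmt3a, Dnmt3b, Dnmt3l, Uhrf1, Trim28, Setdb1, Zfp809, Ehmt2 and Kdm1a. They were chosen by name, and every probe set annotated to them on an Affymetrix Mouse Genome 430 2.0 array was taken, which gave 10 of the 18195 gene entries and 23 of the 45037 probe sets in the table. RNA came from mouse embryonic stem (ES) cells of a hybrid 129/B6 background, grown in serum and LIF on irradiated feeder fibroblasts or on gelatin, and which support each array had was not stated. The groups were Rybp KO cells at day 12, control cells at day 12, Rybp KO cells at day 4 and control cells at day 4. Each group held 4 arrays, from clones 15 and 10 with 2 replicates each. Rybp, a subunit of variant Polycomb repressive complexes that binds Ring1 and Yy1, was depleted in the KO cells with 800 nM 4-hydroxytamoxifen (OHT) for 24 hours. Control cells of the same clones received no OHT, so effects of OHT itself and of the loss of Rybp cannot be told apart. Each line is 1 clone, and nothing in the labels ties a replicate to a culture of its own, so every p-value rests on array-to-array spread that may be technical.

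DNA methylation in mammals is laid down by Dnmt3a and Dnmt3b, with Dnmt3l as a cofactor that has no catalytic activity of its own, and is copied at replication by Dnmt1, which Uhrf1 brings to hemimethylated DNA. In ES cells many endogenous retroviruses are held silent by another route: KRAB zinc finger proteins such as Zfp809, which recognises the primer binding site of murine leukaemia viruses, recruit Trim28, and Trim28 recruits the histone H3 lysine methyltransferase Setdb1. Ehmt2 (G9a) adds methyl groups to the same histone residue on euchromatin, and the demethylase Kdm1a (LSD1) also restrains endogenous retroviruses in ES cells.

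The promoters of Zfp809 and Dnmt3a are shown because these were the only 2 of the 10 genes called between KO and control cells in any of the fits below over all genes. RefSeq (GRCm38.p6) listed a start for each of the 10 genes, 19 in all, and each window ran from 250 bases before to 50 bases after the start, 5′ to 3′ on the gene's strand. Capitals mark a match to AAGATGGC, the core of the Yy1 motif, read as GCCATCTT on the opposite strand, or to the E-box CACGTG. The first window is Zfp809 at chr9:22225453-22225752 (plus strand). The others are an upstream start of Dnmt3a at chr12:3806730-3807029 and its internal start at chr12:3891494-3891793 (both plus strand), the start that gives the short protein, which predominates in ES cells.
Zfp809: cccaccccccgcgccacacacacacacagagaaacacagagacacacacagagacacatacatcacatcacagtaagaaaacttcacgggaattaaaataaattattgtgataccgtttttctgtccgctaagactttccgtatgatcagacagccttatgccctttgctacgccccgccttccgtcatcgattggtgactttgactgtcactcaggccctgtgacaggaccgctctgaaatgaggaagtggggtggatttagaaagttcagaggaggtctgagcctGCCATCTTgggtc
Dnmt3a upstream: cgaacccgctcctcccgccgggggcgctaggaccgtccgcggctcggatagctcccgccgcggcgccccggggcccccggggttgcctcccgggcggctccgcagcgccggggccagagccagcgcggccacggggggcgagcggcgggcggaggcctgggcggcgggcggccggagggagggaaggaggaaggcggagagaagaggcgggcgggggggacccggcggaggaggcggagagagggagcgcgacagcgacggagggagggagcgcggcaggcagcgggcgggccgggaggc
Dnmt3a internal: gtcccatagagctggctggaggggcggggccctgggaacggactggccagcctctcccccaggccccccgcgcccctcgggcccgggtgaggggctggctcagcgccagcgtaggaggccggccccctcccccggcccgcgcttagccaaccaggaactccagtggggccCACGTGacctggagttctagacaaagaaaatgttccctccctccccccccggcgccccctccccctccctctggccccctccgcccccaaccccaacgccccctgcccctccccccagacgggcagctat
The upstream Dnmt3a window held 46 CpG dinucleotides, the internal one 18 and the Zfp809 window 11, against a median of 18 over the 19 windows of the 10 genes and of 7 over all 32851 windows in the table. On either strand, the Yy1 core was in 2.75% of all windows and, of the 10 genes, only in the 2 overlapping windows of Zfp809, and CACGTG was in 7.15% of all windows and in those of Dnmt3a (internal start), Dnmt3l and Ehmt2. The E2F core GCGGGAA was in 4.6% of all windows and in those of Trim28 and Uhrf1. These matches describe the letters in the windows, and binding was not measured.

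The samples matched their labels at the targeted gene. Rybp probe set 1421111_at ranged between 84.9 and 256 (deposited intensity) on the 8 KO arrays and between 2047 and 3434 on the 8 control arrays. A second Rybp probe set, 1428219_at, lay between 2815 and 7612 on KO arrays and between 157 and 2771 on control arrays, and the files do not place either within the gene. Pou5f1 (7558 to 13405), Nanog (7762 to 13053) and Sox2 (8601 to 14452), which define ES cells, were bright on every array. Summed over 16 feeder fibroblast markers, the intensity was 5713 to 7538 on KO arrays and 5269 to 5957 on control arrays at day 12, and 3577 to 5754 on KO and 3776 to 4594 on control arrays at day 4. The sum over 10 endoderm markers was 29628 to 43871 on KO and 21188 to 33105 on control arrays at day 12, against 4591 to 10003 on KO and 4211 to 9205 on control arrays at day 4. Over 7 primed epiblast markers it was 1252 to 1468 on KO and 2340 to 3321 on control arrays at day 12, and 1676 to 3231 on KO and 2444 to 4494 on control arrays at day 4. Of the 7, only Otx2 was called at day 12, with geometric means of 584 in KO and 1900 in control cells (limma, adjusted p = 0.00267). Dkk1 (196 in KO and 71 in control cells) and Sall2 (57.7 and 49.6) were higher in KO cells, and Fgf5, Pou3f1, Zic2 and Lef1 lower, without passing. The part of the feeder, endoderm and primed epiblast markers in the results below was not tested. In bulk RNA fewer cells of a type and less RNA per cell cannot be told apart.

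At day 12, Zfp809 was higher in Rybp KO than in control cells, and none of the other 9 genes passed the test over all genes. Dnmt3a was lower in KO than in control cells in every pair of arrays, and passed only when arrays were paired by clone, day and replicate number. The counts come from limma on log2 intensities with 1 probe set per gene, the one with the highest mean, and an adjusted p under 0.05 as the threshold. At day 12 limma called 1 of the 10 genes higher and 0 lower, against 2.19% of all genes higher and 0.901% lower. At day 4 limma called 0 of 10, against 0.627% of all genes (0.566% higher and 0.0605% lower). At an unadjusted p under 0.05 there were 0 of 10, against 1554 of all 18195 genes. On the mean of both days 1 of 10 was higher and 0 lower, against 3.25% of all genes higher and 1.46% lower. The median log2 difference of the 10 genes, KO minus control, was -0.19 at day 12, -0.06 at day 4 and -0.13 on the mean of both days, beside 0.01 over all genes each time. Of the 10 genes, 7 were below 0 at day 12 and 8 at day 4. With 1 array left out, the sign of some of these turned. They were Uhrf1 at day 12, and Dnmt1, Dnmt3b, Uhrf1, Trim28 and Setdb1 at day 4. With the 8 pairs as a block, limma called 1 higher (Zfp809) and 1 lower (Dnmt3a) of 10 at day 12, against 4.68% of all genes higher and 3.45% lower, and the same 2 genes on the mean of both days, against 5.85% higher and 4.33% lower.

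**Figure D1:**
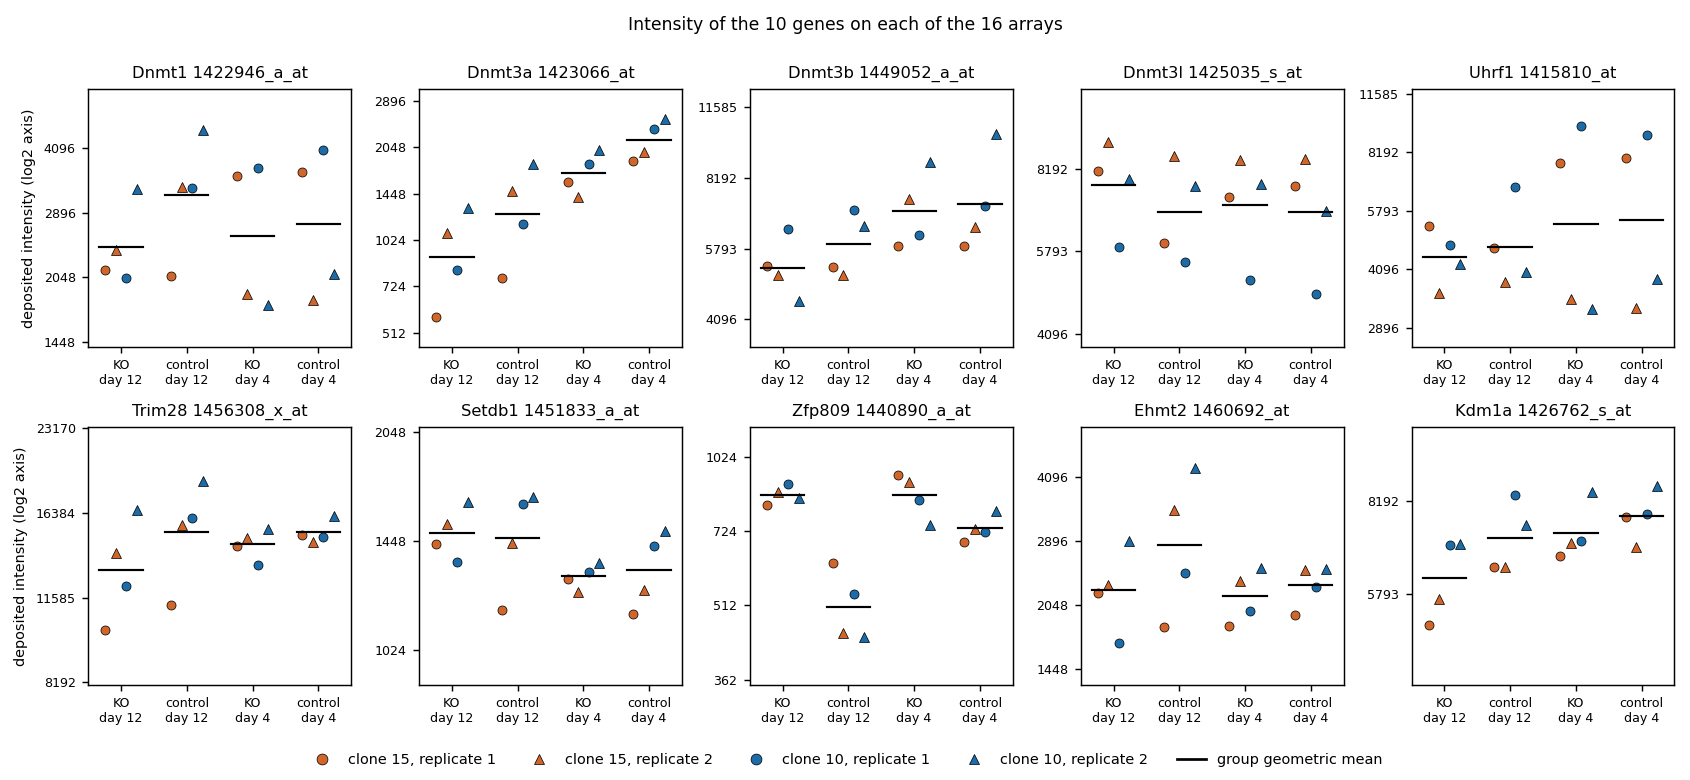
Deposited intensity (log2 axis) of the 10 genes on each of the 16 arrays, by the brightest probe set of each, with KO left of control at day 12 and at day 4. Points are arrays (colour is the clone, shape the replicate) and bars are group geometric means. All 4 KO arrays of Zfp809 lie above all 4 control arrays at day 12, and Dnmt3a is lower at day 12 than at day 4 in both groups.

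**Figure D2:**
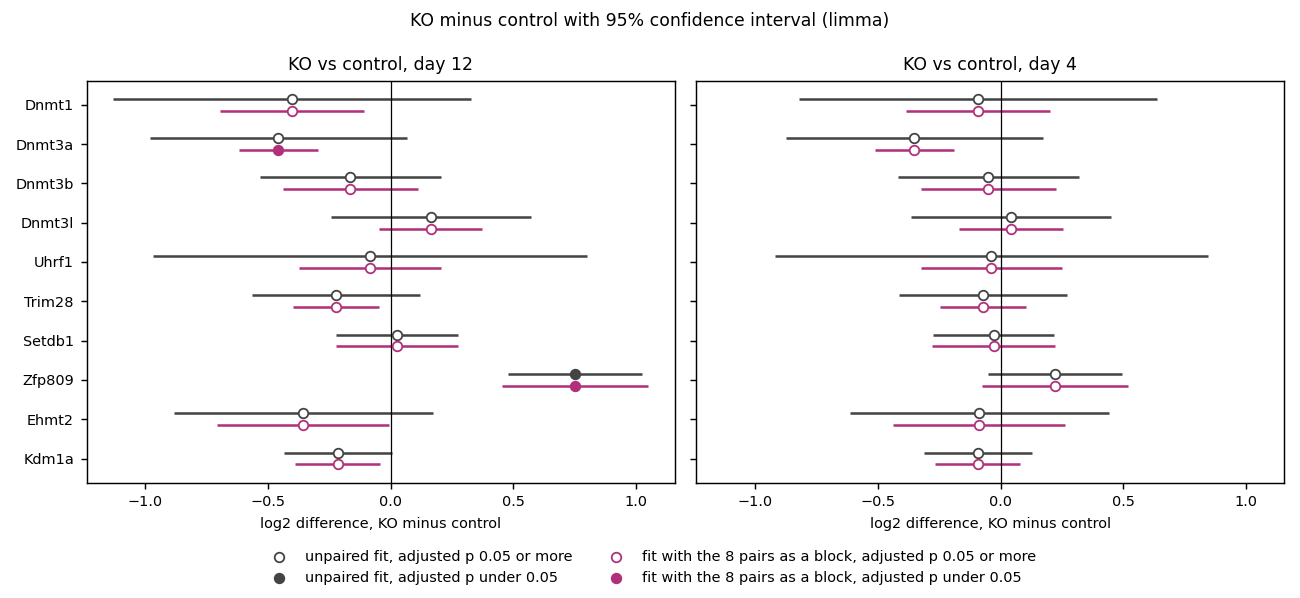
Log2 difference, KO minus control, of the 10 genes at day 12 and day 4, with 95% confidence intervals from limma, without (grey) and with (purple) the 8 pairs as a block. Filled points have an adjusted p under 0.05, which are Zfp809 at day 12 in both fits and Dnmt3a at day 12 with the block.

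Of the enzymes that place new methyl groups, Dnmt3a differed most between KO and control cells. Its brightest probe set, 1423066_at, read 578 and 1082 in clone 15 and 821 and 1302 in clone 10 in KO cells at day 12, against 771 and 1482 in clone 15 and 1151 and 1806 in clone 10 in control cells. At day 4 it read 1579, 1416, 1808 and 2011 in KO cells and 1843, 1974, 2337 and 2532 in control cells, in the same order. The groups overlapped at both days, but the KO array was below its control in 8 of 8 pairs, by 0.22 to 0.49 on the log2 scale. Of all genes, 5.04% were lower in 8 of 8. In limma the day 12 difference was -0.46 ± 0.24 (SE, 4 arrays a group; adjusted p = 0.418), and with the pairs as a block it was -0.46 ± 0.07 (adjusted p = 0.0110). The day 4 difference was -0.35 ± 0.24 (limma, adjusted p = 0.808; 0.0765 with the block). On the mean of both days it was -0.40 ± 0.17 (limma, adjusted p = 0.241; 0.00387 with the block). When each pair was left out in turn, the blocked day 12 value passed in 5 of 8 fits (limma, adjusted p 0.0192 to 0.0556; not without the replicate 2 pair of clone 15 or either pair of clone 10 at day 12) and the mean of both days in 8 of 8 (0.00943 to 0.0185).

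The 4 other Dnmt3a probe sets pointed the same way at day 12, when all 4 KO arrays were below all 4 control arrays in each of them. Probe set 1460324_at read 157, 134, 174 and 158 in KO cells and 315, 280, 299 and 227 in control cells, and 1423065_at read 210, 296, 201 and 273 in KO cells and 300, 403, 491 and 437 in control cells. Probe set 1423064_at read 797, 885, 617 and 798 in KO cells and 919, 1135, 1350 and 1671 in control cells, and 1423063_at read 317, 330, 337 and 311 in KO cells and 361, 522, 498 and 557 in control cells. KO arrays were thus separate from control arrays in 4 of 5 probe sets, beside 4.10% of all probe sets that were wholly lower in KO cells. None passed alone over all probe sets: the differences were -0.84, -0.73, -0.69 and -0.56, with limma adjusted p of 0.0542, 0.113, 0.235 and 0.368, where 0.335% of all probe sets were called lower. With the pairs as a block, 1423066_at was the only one of the 5 to pass (-0.46; limma, adjusted p = 0.0467; 0.961% of all probe sets called lower). At day 4 the probe sets differed among themselves: 1423063_at had KO above control in both pairs of clone 15 and below it in both pairs of clone 10. The files do not say which transcript each probe set reads, so long and short Dnmt3a transcripts were not told apart. The 5 probe sets read the same RNA and are not replicates.

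**Figure D3:**
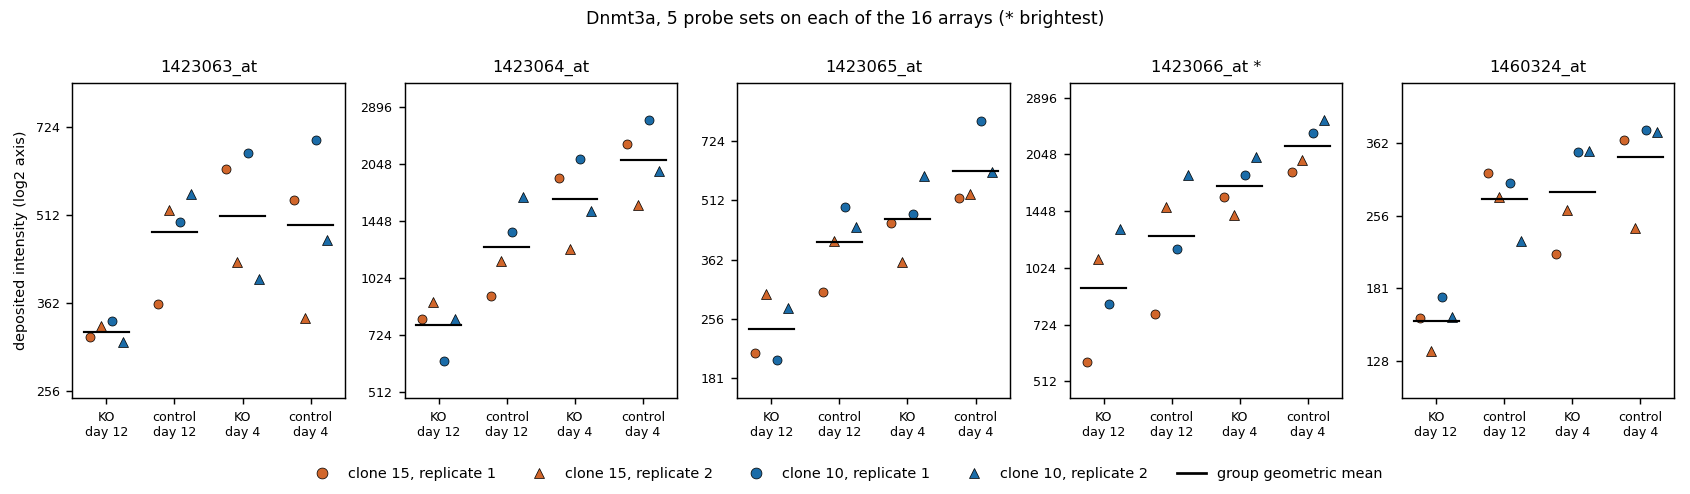
Deposited intensity (log2 axis) of the 5 Dnmt3a probe sets on each of the 16 arrays, KO left of control at day 12 and at day 4. Points are arrays (colour is the clone, shape the replicate) and bars are group geometric means. At day 12 the KO arrays are all below the control arrays in every probe set except 1423066_at.

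Dnmt3b, the other enzyme that methylates unmarked DNA in the early embryo, showed no call. Probe set 1449052_a_at read 5315, 5089, 6382 and 4480 in KO cells and 5306, 5081, 7013 and 6457 in control cells at day 12 (clone 15 replicates 1 and 2, then clone 10). Both clone 15 pairs were level and both clone 10 pairs were lower in KO cells, and the groups overlapped. The difference was -0.16 at day 12 (limma, adjusted p = 0.736) and -0.05 at day 4. In a second probe set, 1418351_a_at, KO was the lower array in 4 of 4 pairs at day 12, clone 15 included, and the difference of -0.41 did not pass over all probe sets (limma, adjusted p = 0.602; 0.245 with the block). Dnmt3l, the cofactor, read 8121, 9178, 5892 and 7843 in KO cells and 5990, 8662, 5534 and 7638 in control cells at day 12. KO was the higher array in 4 of 4 pairs, as for 17.4% of all genes, though the groups overlapped and the difference of 0.16 ± 0.19 did not pass (limma, adjusted p = 0.767).

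By their brightest probe sets, the maintenance enzyme Dnmt1 and its partner Uhrf1 varied more between replicates than between KO and control cells. Dnmt1 probe set 1422946_a_at read 2127, 2364, 2034 and 3296 in KO cells and 2062, 3335, 3308 and 4511 in control cells at day 12. KO was lower in 3 of 4 pairs, and the groups overlapped. The difference was -0.40 ± 0.34 at day 12 (limma, adjusted p = 0.658; 0.101 with the block) and -0.09 ± 0.34 at day 4 (adjusted p = 0.996). A second Dnmt1 probe set, 1435122_x_at, whose suffix marks probes that can also match other transcripts, was lower in KO cells in 8 of 8 pairs, by 0.07 to 0.63, beside 3.91% of all probe sets; its mean difference of -0.32 did not pass (limma, adjusted p = 0.567; 0.0772 with the block). Uhrf1 probe set 1415810_at read 5295, 3552, 4728 and 4221 in KO cells and 4657, 3803, 6654 and 4027 in control cells at day 12. KO was higher in 2 of these pairs and lower in 2, with a difference of -0.08 ± 0.41 (limma, adjusted p = 0.961). The third Dnmt1 probe set, 1447877_x_at, was lower in KO cells in 4 of 4 pairs at day 12 and in 2 of 4 at day 4, and the second Uhrf1 probe set, 1415811_at, in 3 of 4 and 2 of 4.

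In the retroviral silencing pathway, Zfp809, the zinc finger protein that reads the viral sequence, was the member called, higher in KO than in control cells. Its only probe set, 1440890_a_at, read 816 and 867 in clone 15 and 901 and 845 in clone 10 in KO cells at day 12, against 623 and 451 in clone 15 and 540 and 442 in clone 10 in control cells. All 4 KO arrays were above all 4 control arrays, as for 7.41% of all genes. The difference was 0.75 ± 0.13 on the log2 scale (SE; 95% confidence interval 0.48 to 1.03), or 1.68-fold (limma, adjusted p = 0.00626; 0.0165 with the block). It was 0.67 in clone 15 and 0.84 in clone 10, which did not pass for either clone in a fit over all arrays (limma, adjusted p = 0.310 and 0.15) or in a fit of that clone's arrays alone (0.656 and 0.379). At day 4 Zfp809 read 942, 911, 838 and 744 in KO cells and 689, 731, 722 and 793 in control cells. KO was higher in 3 of 4 pairs, with the exception in clone 10, and the difference of 0.22 ± 0.13 did not pass (limma, adjusted p = 0.709). On the mean of both days it was 0.49 ± 0.09 (limma, adjusted p = 0.00699; 0.0174 with the block), with KO higher in 7 of 8 pairs.

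The day 12 gap in Zfp809 lay beside lower control arrays rather than higher KO arrays. The 4 control arrays at day 12 were all below the 4 control arrays at day 4, as for 3.86% of all genes. Their difference of -0.53 ± 0.13 did not pass (limma, adjusted p = 0.0739, and 0.0654 with arrays blocked by clone and replicate number). KO cells differed by 0.00 between the days (limma, adjusted p = 0.997). The KO effect was larger at day 12 than at day 4 by 0.53 ± 0.18, which had an unadjusted p of 0.0115 and an adjusted p of 0.998 over all genes (limma). The day 12 difference between KO and control cells passed with any 1 array left out (0.68 to 0.85; limma, adjusted p 0.00444 to 0.0280). With the block and each pair left out in turn it passed in 5 of 8 fits (0.69 to 0.87; limma, adjusted p 0.0184 to 0.0753). The 3 fits in which it did not pass left out the day 12 pairs of clone 15 replicate 2 (0.0753), clone 10 replicate 1 (0.0651) and clone 10 replicate 2 (limma, adjusted p = 0.0705).

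The corepressor Trim28 and the methyltransferase Setdb1, which act with many KRAB zinc finger proteins, showed no call. Trim28 probe set 1456308_x_at read 10133, 13893, 12125 and 16576 in KO cells and 11257, 15602, 16023 and 18662 in control cells at day 12. KO was the lower array in 4 of 4 pairs, as for 14.1% of all genes, although the groups overlapped, and the difference was -0.22 ± 0.16 (limma, adjusted p = 0.573; 0.117 with the block). A second probe set, 1415869_a_at, was lower in 3 of those 4 pairs. Setdb1 probe set 1451833_a_at stayed between 1147 and 1666 on the 16 arrays. Its SD of 0.17 (log2) was the lowest of the 10 genes, and the differences were 0.03 ± 0.11 at day 12 (limma, adjusted p = 0.958) and -0.03 at day 4. Of its other probe sets, 1416670_at was lower in KO cells in 4 of 4 pairs at day 12 and 1458215_at higher in 3 of 4.

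Ehmt2 and Kdm1a, the histone enzymes outside the Trim28 pathway, were lower in most KO arrays at day 12 without passing the test. Ehmt2 probe set 1460692_at read 2190, 2282, 1666 and 2902 in KO cells and 1818, 3415, 2441 and 4291 in control cells. KO was lower in 3 of 4 pairs, and the difference was -0.36 ± 0.24 (limma, adjusted p = 0.556; 0.199 with the block). Its second probe set, 1426888_at, was lower in 4 of 4 pairs at day 12 and higher in 4 of 4 at day 4. Kdm1a probe set 1426762_s_at read 5146, 5674, 6966 and 6978 in KO cells and 6393, 6412, 8398 and 7496 in control cells. KO was again lower in 4 of 4 pairs and the groups overlapped, with a difference of -0.22 ± 0.10 at day 12 (limma, adjusted p = 0.350; 0.129 with the block). The second Kdm1a probe set, 1426761_at, was also lower in 4 of 4 pairs at day 12.

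**Figure D4:**
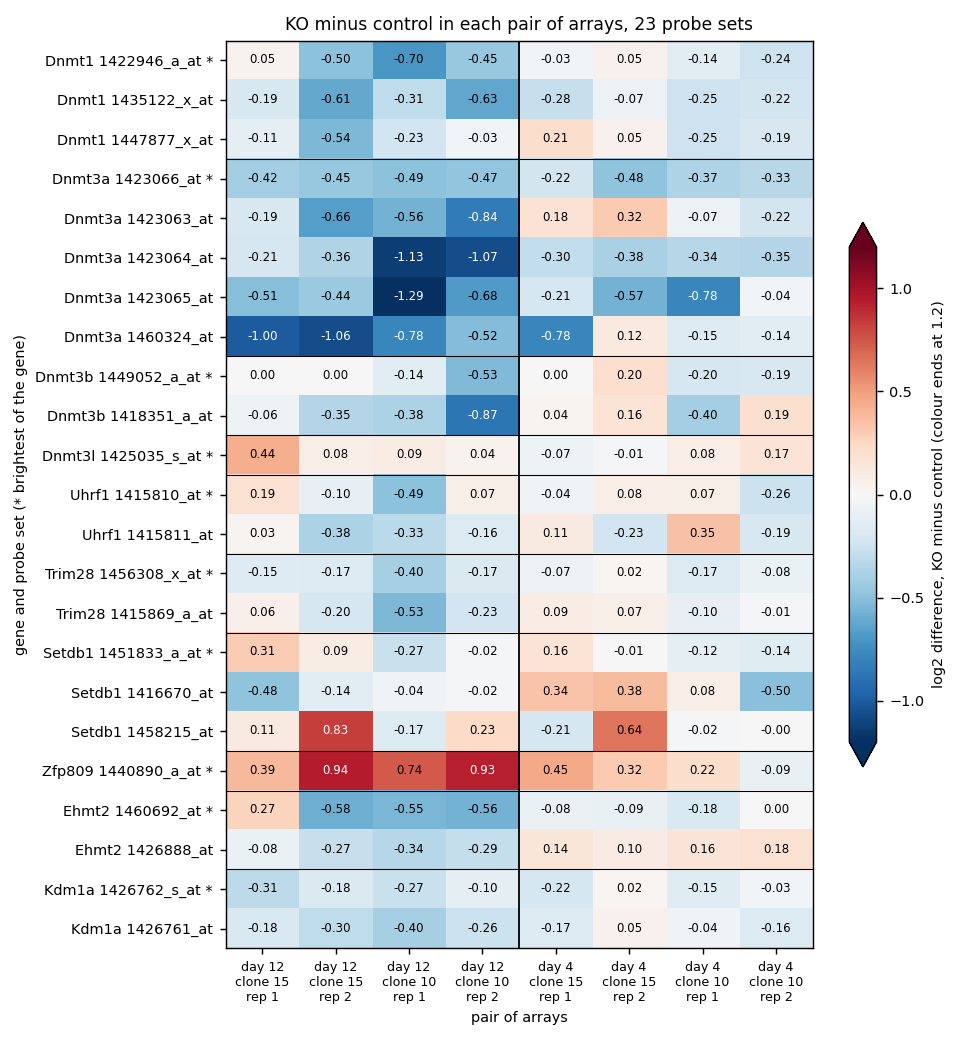
Log2 difference, KO minus control, in each of the 8 pairs of arrays (columns) for the 23 probe sets of the 10 genes (rows), day 12 left of day 4. Red is higher in KO and blue lower. Zfp809 is red in all 4 pairs at day 12, and the 5 Dnmt3a rows are blue in all 4.

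Whether the KO effect on the 10 genes differed between days or between clones was tested directly. In limma 0 of 10 genes passed for the difference between days, with 1 (Zfp809) at an unadjusted p under 0.05, against 0% of all genes (832 of 18195 at an unadjusted p under 0.05). For the difference between clones 0 of 10 passed, with 0 at an unadjusted p under 0.05, against 0% of all genes (585 unadjusted). For Dnmt3a these differences were -0.11 ± 0.34 (day 12 minus day 4) and 0.02 ± 0.39 (clone 15 minus clone 10).

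By its brightest probe set, Dnmt3a was also lower at day 12 than at day 4 within each genotype. In 1423066_at all 4 KO arrays at day 12 were below all 4 KO arrays at day 4, as for 4.49% of all genes, and the same held in control cells, as for 3.86%. The difference was -0.90 ± 0.24 in KO cells (limma, adjusted p = 0.0666, and 0.0234 with a block) and -0.79 ± 0.24 in control cells (limma, adjusted p = 0.155, and 0.0622 with a block). Between days the block was clone and replicate number, since each pair of KO and control arrays lies within a single day. No label ties a replicate number at day 4 to the same number at day 12. Over all probe sets, 3 of 5 Dnmt3a probe sets fell in KO cells: 1423064_at by 1.10, 1423065_at by 0.93 and 1460324_at by 0.89 (limma, adjusted p = 0.0371, 0.0397 and 0.0431), against 0.349% of all probe sets. In control cells the day 12 arrays were also all below the day 4 arrays in 1423065_at, as for 3.64% of all probe sets. In 1423063_at, 1423064_at and 1460324_at they overlapped. Control arrays averaged 484 at day 12 and 509 at day 4 in 1423063_at. Over all genes, 0 of 10 passed in KO cells, against 3.27% of all genes, and 0 of 10 in control cells, against 0.995% (limma). At an unadjusted p under 0.05 there were 3 of 10 in KO cells, against 2867 of all 18195 genes. In control cells there were 2 of 10, against 2525. With the block, Dnmt3a fell in KO cells, 1 of 10 against 1.79% of all genes called lower. The summed endoderm markers were higher at day 12 than at day 4 in both genotypes, as given above, and their part in the Dnmt3a difference was not tested.

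Between clones, limma called 0 of the 10 genes, against 0.192% of all genes. At an unadjusted p under 0.05 there were 5 of the 10, against 1303 of all 18195 genes. Dnmt3a 1423066_at was lower in clone 15 than in clone 10 in 8 of 8 matched arrays, with a difference of -0.38 ± 0.17 (limma, adjusted p = 0.688). Between clones the block was day and replicate number. With it the adjusted p was 0.0121 (limma), and 1 of 10 genes was called lower against 0.682% of all genes. Of all genes 2.68% were lower in 8 of 8, and the other 4 Dnmt3a probe sets were lower in clone 15 in 6 of 8 and higher in 2 of 8. Kdm1a was lower in clone 15 in 8 of 8 in both of its probe sets (-0.26 ± 0.07 in 1426762_s_at; limma, adjusted p = 0.355; 0.0808 with the block). Dnmt3l was higher in clone 15 in 8 of 8 (0.33 ± 0.13; limma, adjusted p = 0.642), as for 2.91% of all genes.

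Several of the 10 genes differed more between replicate numbers than between KO and control cells, a comparison chosen after the data were seen. The labels do not say what the number stands for. At day 4, Uhrf1 read 3427 and 3231 in replicate 2 and 7702 and 9553 in replicate 1 of the KO cells, and 3250 and 3857 in replicate 2 and 7939 and 9078 in replicate 1 of the control cells. All 4 replicate 2 arrays were below all 4 replicate 1 arrays, a difference of -1.31 (limma, adjusted p = 4.96e-05). Dnmt1 did likewise (1875 and 1761 in replicate 2 and 3520 and 3676 in replicate 1 of KO cells, 1806 and 2086 in replicate 2 and 3606 and 4051 in replicate 1 of control cells), by -0.98 (limma, adjusted p = 0.000343). At this day limma called 10.6% of all genes higher and 17.8% lower in replicate 2, and of the 10 genes 2 were higher (Dnmt3b by 0.37 and Dnmt3l by 0.37) and 2 lower in replicate 2. At day 12 limma called 2.66% of all genes higher and 3.83% lower. Here Dnmt3a (0.79), Ehmt2 (0.65), Dnmt1 (0.50), Trim28 (0.40) and Dnmt3l (0.40) were higher and Uhrf1 (-0.44) lower in replicate 2 (limma, adjusted p 0.00254 to 0.0450). In Dnmt1 1422946_a_at replicate 2 was thus the higher array in 4 of 4 at day 12 and the lower in 4 of 4 at day 4. In the other 2 Dnmt1 probe sets it was the lower in 3 of 4 at day 12 and in 4 of 4 at day 4.

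Probe sets of a gene shared the replicate difference for some of the 10 genes and not for others. At day 4 replicate 2 was the lower array in 4 of 4 in all 3 Dnmt1 and both Uhrf1 probe sets, and it was the higher in 4 of 4 at both days in both Ehmt2 probe sets. Other genes were split: at day 4 Setdb1 differed by 1.14 in 1416670_at and by 0.04 in 1451833_a_at, Trim28 by -0.46 in 1415869_a_at and 0.09 in 1456308_x_at, and Kdm1a by -0.44 in 1426761_at and 0.08 in 1426762_s_at. Dnmt3b differed by -0.31 in 1418351_a_at and 0.37 in 1449052_a_at. Where the probe sets of a gene lie along its transcripts was not known here. The log2 ratio of the 3' to the 5' control probe sets of pyruvate carboxylase was 0.57 ± 0.31 in replicate 2 and 1.53 ± 0.24 in replicate 1 at day 4 (SD, n = 4 each). Other controls had smaller day 4 gaps, replicate 2 first: 0.45 and 0.53 for actin, -0.34 and -0.24 for Gapdh, 1.061 and 1.254 for Tfrc. In the same order, day 12 ratios were 0.74 and 0.66 for pyruvate carboxylase and 0.47 and 0.50 for actin. They were -0.31 and -0.33 for Gapdh and 1.24 and 1.11 for Tfrc. The part of RNA or labelling quality in the replicate differences was not tested. The pyruvate carboxylase ratio was 0.79 ± 0.26 in KO and 0.61 ± 0.18 in control cells at day 12, and 1.04 ± 0.71 in KO and 1.07 ± 0.51 in control cells at day 4. The Tfrc ratio was 1.17 ± 0.12 in KO and 1.19 ± 0.14 in control cells at day 12, and 1.26 ± 0.19 in KO and 1.06 ± 0.09 in control cells at day 4. The actin ratio was 0.52 ± 0.09 in KO and 0.45 ± 0.03 in control cells at day 12 (SD, n = 4 each throughout), and the part of these ratios in the KO differences was not tested. The summed endoderm markers at day 4 also parted by replicate number, at 4211 to 5608 in replicate 2 and 6305 to 10003 in replicate 1.

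**Figure D5:**
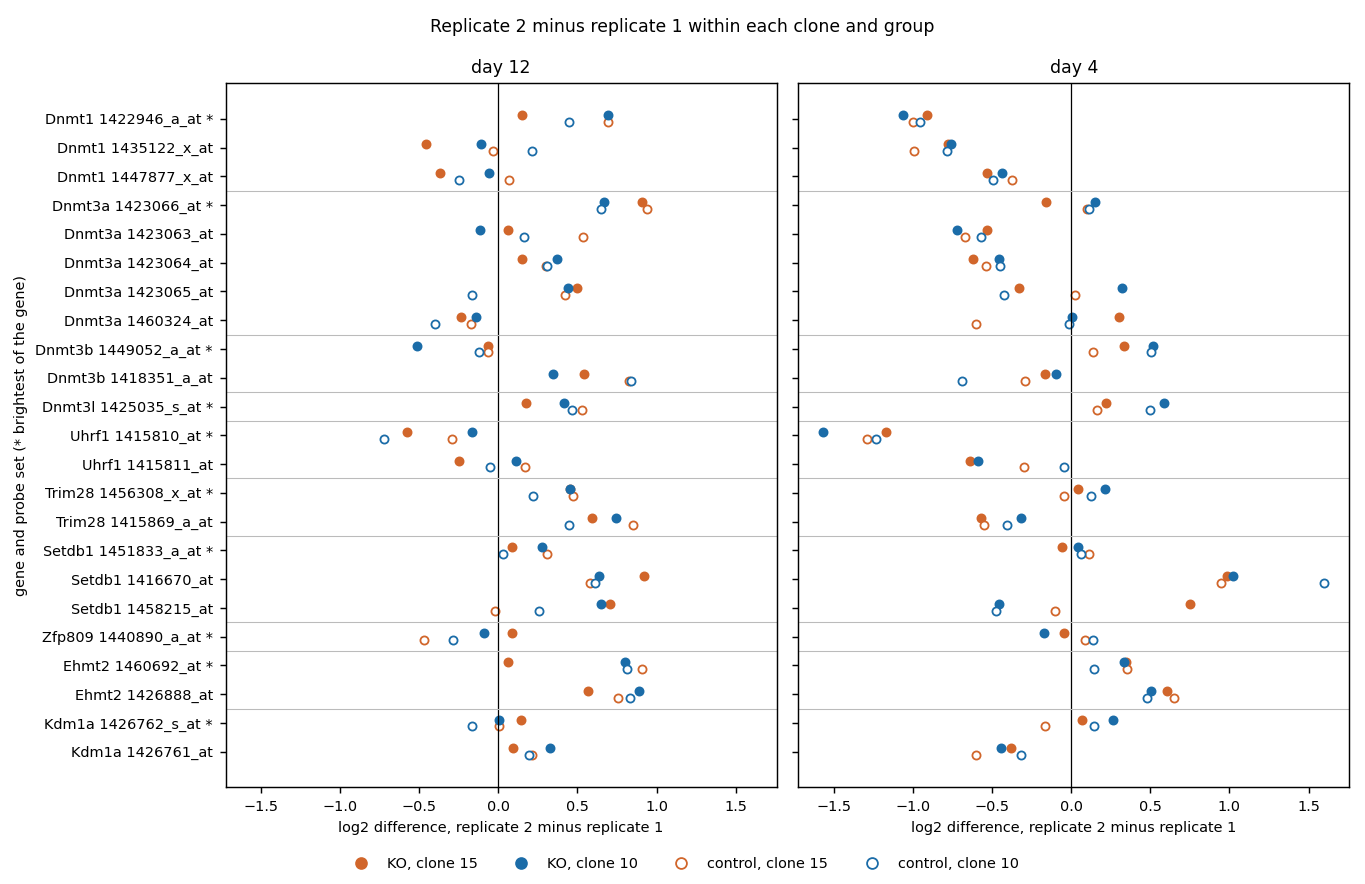
Log2 difference, replicate 2 minus replicate 1, within each clone and group for the 23 probe sets of the 10 genes, day 12 left of day 4. Filled points are KO and open points control. At day 4 the Uhrf1 1415810_at and Dnmt1 1422946_a_at points all lie near -1 or below, and probe sets of 1 gene often lie on opposite sides of 0.

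Over the 16 arrays, Dnmt3a varied most of the 10 genes (SD 0.60 on the log2 scale), followed by Uhrf1 (0.54) and Dnmt1 (0.47), beside a median of 0.28 over the brighter genes. The genes whose standardised values lay closest to those of Dnmt3a over the 16 arrays were Khdc3, Kdm5b and Scaf8, with mean absolute differences of 0.244, 0.290 and 0.306 SD against a median of 1.12 over all genes. Closest to Uhrf1 were Nrsn1 (0.216), Ppp1r15a (0.232) and Tomm7 (0.236), and closest to Dnmt1 were Ptov1 (0.156), Taf5l (0.161) and Phc1 (0.162). These likenesses carry the same day, clone and replicate differences and have no test.

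Among 23 other genes of DNA methylation (demethylases, methyl-CpG binding proteins and cofactors), 20 were measured, and limma called 0 higher and 0 lower at both days, against 2.19% of all genes higher and 0.901% lower at day 12. On the mean of both days 1 fell, against 1.46% of all genes: Apobec1, a cytidine deaminase that edits RNA, had a geometric mean of 357 in KO and 533 in control cells (-0.58 ± 0.13; limma, adjusted p = 0.0267). The median difference of the list was -0.05 at day 12 and 0.03 at day 4. With the block, 3 rose at day 12, the methyl-DNA binding proteins Mbd2 (0.52) and Zbtb33 (0.38) and the tRNA methyltransferase Trdmt1 (0.64), and 3 fell, Mbd3 of the NuRD complex (-0.63), Cdca7 (-0.32) and Apobec1 (-0.71), with limma adjusted p between 0.00802 and 0.0329. These 3 and 3 of 20 stood against 4.68% of all genes higher and 3.45% lower with the block. Over both days the block called Zbtb33 and Trdmt1 higher and Mbd3, Cdca7 and Apobec1 lower, against 5.85% of all genes higher and 4.33% lower. Between the days, Mbd2 was higher at day 12 than at day 4 in KO cells (0.86, limma adjusted p = 0.00460). This was 1 of 20, against 2.24% of all genes called higher. Zbtb33 was lower at day 12 in control cells (-0.64, limma adjusted p = 0.0165), 1 of 20 against 0.341% called lower. Zbtb33 differed by -0.45 between the days in KO cells (limma, adjusted p = 0.0508, and 0.0242 with arrays blocked by clone and replicate number). With that block 1.79% of all genes were called lower.

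Of 25 other genes of Trim28-type silencing, 22 were measured and 0 were called in either direction at either day or on the mean of both days (limma). Of all genes, 2.19% were called higher and 0.901% lower at day 12, 0.627% in either direction at day 4, and 3.25% higher and 1.46% lower on the mean. With shares this low, 0 of 22 does not set the list apart from all genes. With the block, Chaf1b, a subunit of the chromatin assembly factor that loads histones behind the replication fork, fell by 0.27 at day 12 (limma, adjusted p = 0.0411) and by 0.23 on the mean of both days (adjusted p = 0.0197), 1 of 22 each time against 3.45% and 4.33% of all genes called lower. Zfp42 (Rex1), a relative of Yy1, differed between clones, with a geometric mean of 2654 in clone 15 and 8148 in clone 10 (-1.62, limma adjusted p = 2.55e-05). It was 1 of 22 called lower in clone 15, against 0.0879% of all genes. With arrays blocked by day and replicate number, Atf7ip was also lower in clone 15 (-0.34, limma adjusted p = 0.0456), making 2 of 22 against 0.682%. Of 25 other histone H3 lysine 9 and Kdm1a complex genes, 24 were measured. At day 12, 1 fell, against 0.901% of all genes: Phf21a, the histone reader of the Kdm1a complex, had a geometric mean of 306 in KO and 569 in control cells (-0.90 ± 0.21; limma, adjusted p = 0.0397). Phf21a also fell on the mean of both days (-0.69 ± 0.15; limma, adjusted p = 0.0190) and Prdm16, a methyltransferase-family factor, rose (1.02 ± 0.23; adjusted p = 0.0244), with geometric means of 219 in KO and 108 in control cells. With the block, limma called 1 of 24 higher at day 12 (Prdm16) and 3 lower, against 4.68% of all genes higher and 3.45% lower. Those lower were Phf21a, Wiz, a partner of Ehmt2 (-0.53; limma, adjusted p = 0.0190), and Mta1 of the NuRD complex (-0.45; adjusted p = 0.0469). Over both days the block called Prdm16 higher and Phf21a, Wiz and the demethylases Kdm3a (-0.25; limma, adjusted p = 0.0416) and Kdm4c (-0.35; adjusted p = 0.0230) lower, against 5.85% of all genes higher and 4.33% lower. The median difference of the list was -0.17 at day 12 and -0.01 at day 4.

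Germline genes, many of which carry promoter methylation in somatic cells, rose in number beside these small differences. From a list chosen with earlier results of these arrays in view, and so no independent evidence of direction, 18 of 20 genes were measured. Of these 13 rose and 0 fell at day 12, against 2.19% of all genes higher and 0.901% lower, and 8 rose and 0 fell at day 4, against 0.566% higher and 0.0605% lower (limma). Dazl (2.91), Mael (2.54) and Ddx4 (1.93), RNA-handling proteins of germ cells, were among those that rose at day 12 (log2 differences). Sycp3 (-0.12) and Cyct (-0.10), genes of meiotic chromosomes and of sperm mitochondria, did not pass. Of 19 genes of the 2-cell embryo chosen in the same way, 11 were measured, of which 11 rose and 0 fell at day 12 and 8 rose and 0 fell at day 4 (limma), against the same shares of all genes. Methylation of these genes was not measured here.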

How the data were processed

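RNA of 16 mouse ES cell samples was measured on Affymetrix Mouse Genome 430 2.0 arrays. Per the submitters' processing notes, Affymetrix Expression Console and RMA made the values, and the authors deposited them as linear intensity, 1 value per probe set and array, with every array's median at 93.3 and values between 0.144 and 52570. The planned tests assumed log2 values, and since the deposited ones are linear, log2 was taken here with no offset. No genome build or scan batch was given in the sources used here.

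Genes were named from the platform annotation, and the probe set with the highest mean stood for a gene (18195 entries); values of single probe sets come from a fit over all 45037. Groups were compared with limma 3.58.1 in R 4.3.3 (lmFit and eBayes, 4 groups with clone as a term, Benjamini-Hochberg adjustment over all entries, threshold 0.05), and its scripts were tested on simulated data. Values are geometric means or log2 differences with their SE. Background shares are the percent of all entries called. Array number limits the precision: 4 arrays a group and 2 clones.

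The 10 genes, the lists and the tests were chosen with earlier results of these data known. All 10 genes were named; genes of the 3 pathway lists were named when called between KO and control cells or, between days or clones, as examples, and germline genes as examples, all examples chosen after their values were seen, and the 3 genes closest in standardised values were named for the most variable of the 10. Over the brighter 9098 genes, deviations of same-numbered arrays from their group means correlated at 0.17 to 0.44 at day 12 and 0.70 to 0.75 at day 4; over all 18195 they did so at -0.08 to -0.04 and 0.04 to 0.06. The labels give both arrays of a pair the same clone, day and number, and they were treated as paired in the fit with a block. Alternatives were the block, dim genes left out, a floor on intensity, every probe set, no clone term, each clone alone and each array left out; the replicate number as a term and each pair left out were added after seeing the data. Promoters came from RefSeq (GRCm38.p6), with no link to the probes' own positions. Python 3.11.15, pandas 2.3.3 and matplotlib 3.10.9 were used.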

Additional observations from a re-analysis of the deposited data

Results flagged for a closer look

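Dnmt3a probe set 1460324_at had 1 array far from the others of its group. In control cells at day 4 the clone 15 replicate 2 array read 242, against 367 to 386 on the other 3, a gap of 0.893 of the group's range. This was 1 of 92 such tests, of which chance passes about 1 in 20. The KO array of that pair was the only one of the 8 to lie above its control in this probe set.

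Dnmt3b 1449052_a_at was lower in KO cells in clone 10 only, where KO minus control averaged -0.27 (-0.53 to -0.14 over 4 pairs). In clone 15 it averaged 0.051 over 4 pairs, of which the day 4 replicate 2 pair was at 0.20 and the others at 0.00. The difference between clones, 0.32, did not pass (limma, unadjusted p = 0.25; adjusted p = 0.863 with the pairs as a block). Ehmt2 1426888_at moved in opposite directions at the days: KO minus control averaged -0.24 at day 12 (-0.34 to -0.08 over 4 pairs) and 0.14 at day 4 (0.10 to 0.18). The difference between days, -0.39 ± 0.41, did not pass (limma, adjusted p = 0.655 with the block).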

How the results depend on the processing

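With 4 arrays a group and 2 clones, the unpaired fit, which has clone as a term, did not call the Dnmt3a difference between KO and control cells. The fit with the pairs as a block called it at day 12 and on the mean of both days. The count of calls over all genes moved with the processing more than the sign of called values did. Zfp809 at day 12 and on the mean of both days kept its direction under all alternatives and passed under all of those run on both clones, except in some fits with the block and a pair left out (limma, adjusted p up to 0.0753 at day 12 and 0.0548 on the mean); with clone 15 or clone 10 alone it did not pass at day 12 (limma, adjusted p = 0.656 and 0.379), where there are fewer arrays. In control cells it was lower at day 12 than at day 4 with dim genes left out (limma, adjusted p = 0.0446), with a floor (0.0251) or without the control day 12 clone 15 replicate 1 array (0.0445). Dnmt3a in KO cells fell between the days with dim genes left out (limma, adjusted p = 0.0433) and with a floor (0.0444).

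With the replicate block (the 8 pairs), genes higher and lower in KO numbered 852 and 627 at day 12 (399 and 164 without it), 1064 and 787 on the mean of both days (591 and 266), and 44 were lower at day 4 (11). The pairs also gave 1 gene with a larger KO effect at day 12 (0). Blocked by clone and replicate number, 213 genes were higher and 133 lower at day 12 against day 4 in control cells (119 and 62), and 326 lower in KO cells (187). Blocked by day and replicate number, 101 were higher and 124 lower in clone 15 (19 and 16). Apart from the Dnmt3a calls given with the report's values, these blocked fits changed no call of the 10 genes.

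A floor on low intensities gave 624 higher and 285 lower in KO at day 12, 176 and 40 at day 4 (103 and 11 without it), 285 and 205 between days in control cells, 696 and 398 in KO cells (408 and 187), 37 and 36 between clones, and 1 and 1 for a KO effect that differed between clones (0 and 0). Leaving out dim genes gave 194 and 114 between days in control cells and 1 higher for the difference between clones; every probe set gave 7 lower at day 4. Clone 10 alone gave 34 and 3 at day 12, 4 and 1 at day 4, 52 and 3 on the mean, 0 and 0 between days in control cells and 1 and 0 in KO cells. Clone 15 alone gave 0 and 0 at day 12, 0 and 0 at day 4, 28 and 2 on the mean, and 0 and 0 between days in control and in KO cells. Leaving out 1 array gave 203 to 380 higher and 84 to 160 lower at day 12, 62 to 102 and 2 to 12 at day 4, 66 to 118 and 19 to 52 between days in control cells, 175 to 410 and 64 to 183 in KO cells, and 0 to 1 higher for the difference between clones.

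Directions that turned belong to differences that passed no test. With clone 15 alone the KO difference was 0.0025 for Dnmt3b and 0.043 for Uhrf1 at day 12, and 0.0097 for Dnmt1, 0.10 for Dnmt3b, -0.038 for Dnmt3l, 0.016 for Uhrf1 and 0.077 for Setdb1 at day 4. On the mean of both days it was 0.051 for Dnmt3b, 0.030 for Uhrf1 and 0.14 for Setdb1, and Uhrf1 differed by 0.027 between the days' effects. Day 12 minus day 4 was then -0.16 for Dnmt3l and -0.16 for Trim28 in control cells and -0.14 for Zfp809 in KO cells. With clone 10 alone, Setdb1 was -0.15 at day 12, the days' effects differed by -0.061 for Dnmt3l and -0.013 for Setdb1, and day 12 minus day 4 in KO cells was 0.025 for Dnmt1 and -0.020 for Ehmt2.

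With 1 array left out, the KO difference spanned 0 for Uhrf1 (-0.21 to 0.071) and Setdb1 (-0.060 to 0.11) at day 12. At day 4 it did so for Dnmt1 (-0.30 to 0.15), Dnmt3b (-0.13 to 0.080), Dnmt3l (-0.076 to 0.15), Uhrf1 (-0.31 to 0.26), Trim28 (-0.12 to 0.0039) and Setdb1 (-0.068 to 0.0044), and on the mean for Uhrf1 (-0.20 to 0.086) and Setdb1 (-0.044 to 0.040). The difference of the KO effect between days spanned 0 for Dnmt3a (-0.29 to 0.059), Dnmt3b (-0.24 to 0.018), Dnmt3l (-0.010 to 0.24), Uhrf1 (-0.34 to 0.23) and Setdb1 (-0.033 to 0.14). Between clones it did so for Dnmt3a (-0.21 to 0.26), Dnmt3l (-0.13 to 0.16), Uhrf1 (-0.21 to 0.57), Trim28 (-0.0047 to 0.23), Zfp809 (-0.040 to 0.19), Ehmt2 (-0.025 to 0.43) and Kdm1a (-0.099 to 0.032). Day 12 minus day 4 spanned 0 for Dnmt3l (-0.12 to 0.13), Uhrf1 (-0.48 to 0.0017) and Trim28 (-0.079 to 0.12) in control cells, and for Dnmt1 (-0.32 to 0.12), Zfp809 (-0.061 to 0.044) and Ehmt2 (-0.070 to 0.22) in KO cells. The cause was not tested for any of these.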
